A study of Mus musculus with 6 samples.

Results

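The Notch genes examined here are the receptors Notch1, Notch2, Notch3 and Notch4, the ligands Jag1, Jag2 and Dll1, the transcription factor Rbpj, and the target genes Hes1 and Hey1. They were chosen by annotated gene symbol, and all 10 were measured, each by 1 probe, among 16504 named genes and 19624 features in all. RNA of mature fiber cells was compared with RNA of elongating fiber cells of the mouse lens on 6 two-colour arrays, each carrying one population per channel. Mature fibers were in channel 1 on 3 arrays (titled lens249, lens487 and lens493) and elongating fibers were in channel 1 on the other 3 (lens250, lens488 and lens455). The cells of both populations came from the GFP transgenic strain TgN(GFPU)5Nagy and were cut by laser capture from sections 5 µm thick. For lens249 and lens250 the labels add pooled lenses of littermates at postnatal day 5, about 40 slices and a minimum of 200 cells. Whether arrays came from separate animals or extracts is not stated, so the p-values measure the spread between arrays, which may be technical.

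Notch signalling passes between touching cells. A Jagged or Delta ligand on one cell binds a Notch receptor on its neighbour, the receptor is cut by ADAM proteases and then by gamma-secretase, and the freed intracellular part enters the nucleus, binds the DNA-binding protein RBPJ and switches on targets such as the repressors Hes1 and Hey1. In the mouse lens Jag1 is made by fiber cells, and loss of Jag1, Notch2 or Rbpj is known to disturb the balance between growing epithelium and differentiating fibers.

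The regulatory stretches of 3 of these genes are shown because Rbpj encodes the factor that reads the signal, Notch2 had the lowest p of the 10 and Notch1 the widest spread between arrays. They run 5′ to 3′ from 250 bases before to 50 bases after an annotated start and come from RefSeq, build GRCm38.p6. Capitals mark matches on either strand to TGGGAA, the core that RBPJ binds, and to CACNAG, the N-box bound by Hes proteins. The Rbpj window lies at chr5:53590096-53590395 on the plus strand, that of Notch2 at chr3:98013288-98013587 on the plus strand and that of Notch1 at chr2:26503773-26504072 on the minus strand. The Rbpj gene is annotated from 53555779 to 53657445, so its window lies at a start inside the gene and not at its outermost start.
Rbpj: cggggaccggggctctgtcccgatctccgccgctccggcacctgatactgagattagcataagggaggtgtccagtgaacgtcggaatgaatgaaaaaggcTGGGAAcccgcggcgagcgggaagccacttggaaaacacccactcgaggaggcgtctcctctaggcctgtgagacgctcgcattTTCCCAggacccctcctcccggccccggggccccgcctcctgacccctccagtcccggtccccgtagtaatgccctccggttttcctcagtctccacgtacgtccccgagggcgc
Notch2: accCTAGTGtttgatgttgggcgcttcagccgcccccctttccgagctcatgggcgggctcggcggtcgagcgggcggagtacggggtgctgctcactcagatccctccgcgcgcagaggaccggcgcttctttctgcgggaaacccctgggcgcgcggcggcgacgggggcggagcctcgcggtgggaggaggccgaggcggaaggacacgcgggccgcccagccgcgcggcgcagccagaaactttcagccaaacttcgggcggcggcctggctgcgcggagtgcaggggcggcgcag
Notch1: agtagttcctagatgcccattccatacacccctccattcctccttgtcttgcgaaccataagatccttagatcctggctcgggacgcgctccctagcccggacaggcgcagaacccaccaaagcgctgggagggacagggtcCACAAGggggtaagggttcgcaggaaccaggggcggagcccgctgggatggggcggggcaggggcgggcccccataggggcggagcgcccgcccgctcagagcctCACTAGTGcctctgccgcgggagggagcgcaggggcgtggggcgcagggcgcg
The Rbpj window holds 2 matches to the RBPJ core and no N-box. Notch2 has 1 N-box, near the upstream end of its window, and Notch1 has 3, of which a pair overlaps at the start site. Promoter windows matched 8 of the 10 genes, with 10 windows in all. The targets Hes1 and Hey1 had no window, so these counts say nothing about them. The RBPJ core was found in 2 of these 10, both of Rbpj and overlapping each other, against 25.6% of 32851 mouse promoter windows of the same length, and the N-box in 4 of 10, against 42.5%. The longer form GTGGGAA was found in 0 of the 10, against 6.38% of all windows. A match describes letters only, and no binding was measured.

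Each array gave 1 log ratio per gene. Signs were turned on lens250, lens488 and lens455, which had elongating fibers in channel 1, so that all 6 arrays run the same way. The positive side is that of Dnase2b, the nuclease that degrades DNA in lens fibers (1.81 ± 0.30, SD, n = 6), and the negative side that of Cdh2, N-cadherin (-1.78 ± 0.54). With channel 1 as the numerator, positive values would mean more RNA in mature than in elongating fibers, and with channel 2 as the numerator less. The sources used here do not say which, so no direction is given below. The base of the logarithm is not stated either, and values are in deposited log units. The signs of all genes would exchange together. A ratio holds no level, so the genes cannot be ordered by abundance, the labelled cell type cannot be checked by the presence of its markers, and fewer cells of a type cannot be told apart from less RNA per cell. As deposited, arrays of the same orientation correlated with r from 0.13 to 0.34 across probes, and arrays of opposite orientation with r from -0.62 to -0.041. The most negative were lens487 with lens488 (-0.62) and lens493 with lens455 (-0.45), and lens249 with lens250 had -0.14. The other opposite pairs ran from -0.16 to -0.041. Whether any pair shares its RNA was not tested.

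None of the 10 genes passed the test of a difference between mature and elongating fibers. In limma, which also fitted each gene's dye effect, 0 of 10 had an adjusted p under 0.05, against 1.73% of all features (0.372% above 0 and 1.36% below 0). At an unadjusted p under 0.05 there was 1, Notch2, against 16.2% of all features. Their mean turned ratios ran from -0.22 for Hey1 to 0.27 for Notch2, with a median of 0.14, and 7 of 10 lay above 0, against 51.0% of all features, whose median was 0.003. The features that passed had sizes of at least 0.337, and no Notch gene reached that size. The median size of the 10 was 0.158, against 0.0886 over all features, and their median SD between arrays was 0.296, against 0.230.

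**Figure D1:**
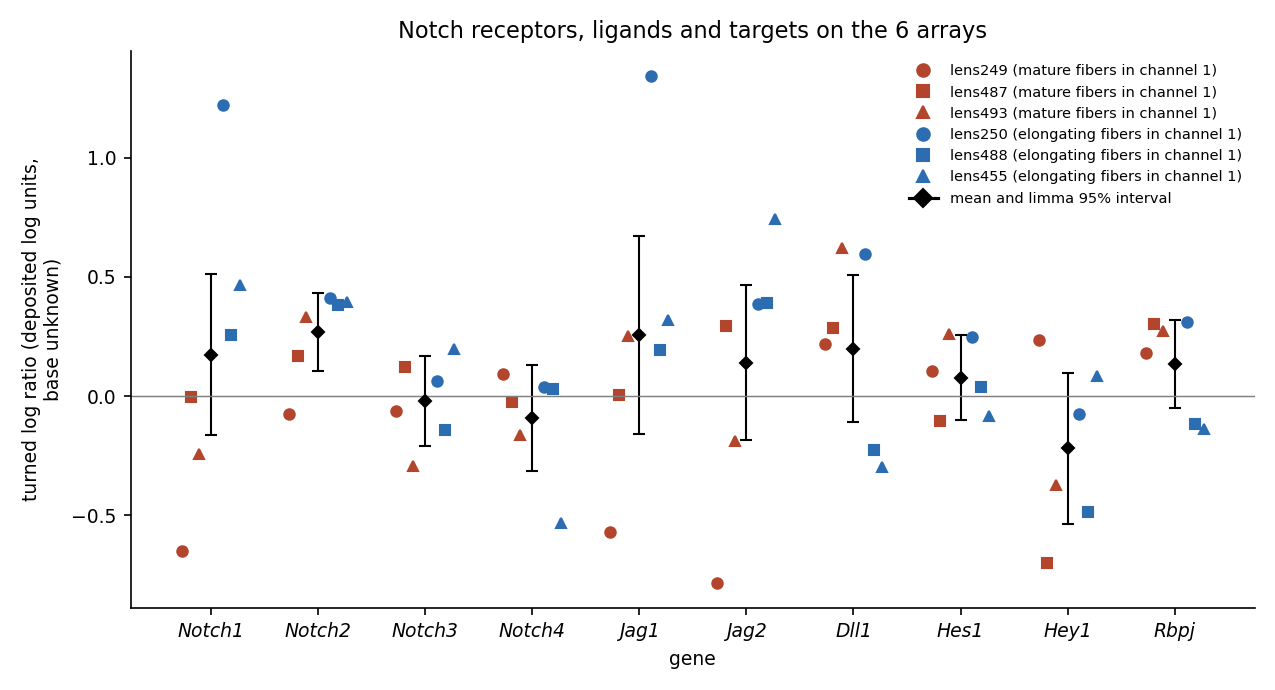
Turned log ratios (deposited log units, base unknown) of the 10 Notch genes on each of the 6 arrays, with arrays that had mature fibers in channel 1 in red, arrays that had elongating fibers in channel 1 in blue, and the mean with its 95% limma interval in black. The interval of Notch2 lies above 0, the other 9 include 0, and Notch1 and Jag1 spread from under -0.5 on lens249 to over 1 on lens250.

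Among the receptors, Notch2 came closest to the threshold. It had -0.077 on lens249, 0.17 on lens487 and 0.33 on lens493, the arrays with mature fibers in channel 1, and 0.41 on lens250, 0.38 on lens488 and 0.39 on lens455. It was thus above 0 on 5 of 6 arrays, and lens249 was the array on the other side. At least 5 of 6 arrays had the same sign for 2 of the 10 genes, against 31.9% of all features. The Notch2 mean was 0.27 ± 0.19 (SD, n = 6; 95% interval 0.10 to 0.43) and did not pass (limma adjusted p = 0.13). Read as log2, that mean is 1.20-fold (1.07-fold to 1.35-fold), and read as log10 it is 1.86-fold (1.27-fold to 2.72-fold). Over the 17 other ways of fitting, its limma adjusted p ran from 0.097 to 0.58, and its mean stayed on the positive side.

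Notch1, the receptor most often linked to cell fate decisions, differed more between arrays than between fiber populations. It had -0.65 on lens249, -0.003 on lens487 and -0.24 on lens493, and 1.22 on lens250, 0.26 on lens488 and 0.47 on lens455. The 3 arrays with mature fibers in channel 1 lay below 0 and the 3 with elongating fibers in channel 1 above it, so the 2 orientations did not overlap. Their means were -0.30 ± 0.33 and 0.65 ± 0.51 (SD, n = 3 each), and over all 6 the mean was 0.17 ± 0.64 (95% interval -0.16 to 0.51, limma adjusted p = 0.62). The dye effect of Notch1, the part of the ratio that followed the channel and not the fiber population, was -0.47 (limma adjusted p = 0.29). Only 4.14% of features had an SD between arrays as large as that of Notch1. Without lens250 the Notch1 mean was 0.031, without lens487 0.10, without lens249 0.26 and without lens488 0.27, each over 1.5 times away from the value on 6 arrays, and none passed.

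Notch3 and Notch4, receptors known from vascular smooth muscle and from endothelium, lay close to 0. Notch3 had -0.062 on lens249, 0.12 on lens487 and -0.30 on lens493, and 0.065 on lens250, -0.14 on lens488 and 0.20 on lens455. The signs alternated within both orientations, and the mean was -0.019 ± 0.18 (95% interval -0.21 to 0.17, limma adjusted p = 0.94). Notch4 had 0.094 on lens249, -0.024 on lens487 and -0.16 on lens493, and 0.039 on lens250, 0.031 on lens488 and -0.53 on lens455. Its mean of -0.093 ± 0.23 (95% interval -0.31 to 0.13, limma adjusted p = 0.70) rested on lens455, and without that array it was 0.002. Of 8 vessel endothelium markers 0 passed in limma, against 1.73% of all features, and 0 had an unadjusted p under 0.05, against 16.2%. The mean of this list lay between -0.056 and 0.096 on the 6 arrays. Single markers ran wider and in opposite ways. Kdr had -0.71 on lens249 and 0.994 on lens250, and Flt1 had 0.285 and -0.428. The part of vessel endothelium in the Notch4 values was not tested.

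Among the ligands, Jag1 and Jag2 were lowest on lens249, as Notch1 was. Jag1, the Jagged ligand of lens fibers, had -0.57 on lens249, 0.003 on lens487 and 0.25 on lens493, and 1.34 on lens250, 0.19 on lens488 and 0.32 on lens455. It was below 0 on lens249 alone and highest on lens250, the same arrays that were lowest and highest for Notch1. The same 2 arrays were lowest and highest for the endothelium marker Kdr and for Tle3, Kdm5a and Hey2, described below. How many of all features share this was not counted. The Jag1 mean was 0.26 ± 0.62 (95% interval -0.16 to 0.67, limma adjusted p = 0.54). The upper end of that interval reads as 1.59-fold under log2 and as 4.69-fold under log10. Without lens250 the Jag1 mean was 0.076, without lens493 0.17, and with lens249 and lens250 both left out 0.19.

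Jag2, a second Jagged ligand, had -0.78 on lens249, 0.29 on lens487 and -0.19 on lens493, and 0.39 on lens250, 0.39 on lens488 and 0.75 on lens455. Below 0 lay lens249 and lens493, and the highest array was lens455. Its mean was 0.14 ± 0.54 (95% interval -0.18 to 0.47, limma adjusted p = 0.68), with a dye effect of -0.37 (limma adjusted p = 0.35). Without lens487 the mean was 0.011, without lens455 0.082, without lens249 0.28 and without lens249 and lens250 0.31. Of the 10 genes, Notch1 and Jag2 had a dye effect at an unadjusted p under 0.05, against 12.6% of all features, and 0 passed after adjustment, against 0.0% of all features. The means of the 2 orientations had opposite signs for 4 of the 10 genes (Notch1, Notch3, Jag1 and Jag2), against 47.9% of all features.

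**Figure D2:**
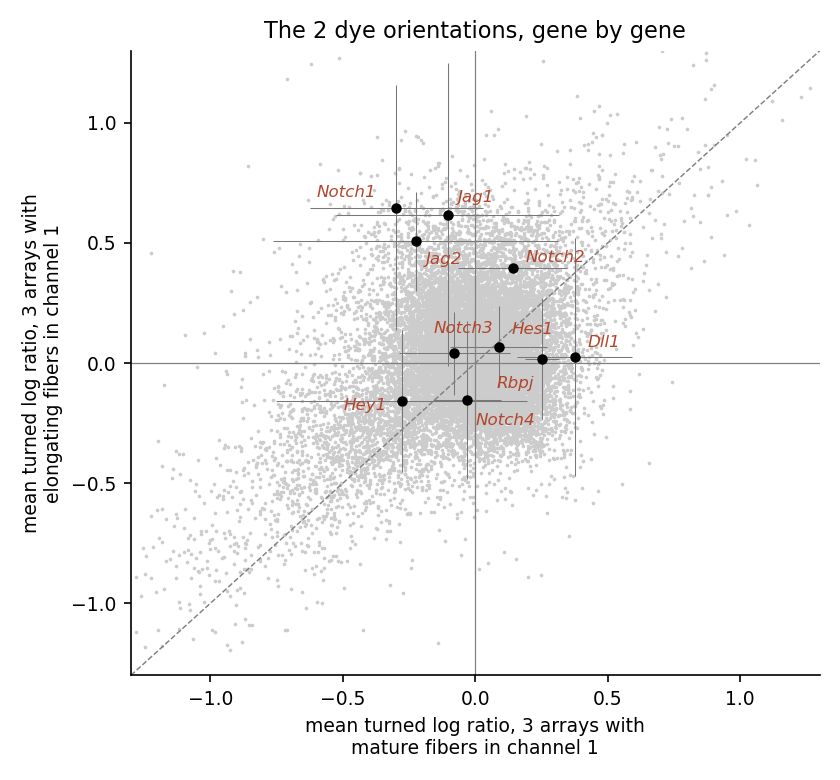
Mean turned log ratio of each Notch gene over the 3 arrays with mature fibers in channel 1 (x axis) and over the 3 with elongating fibers in channel 1 (y axis), in deposited log units, with SD bars, all other features in grey and equality as a dashed line. Axes stop at 1.3 and leave out 44 features; Notch1, Jag1 and Jag2 lie left of 0 and above 0.5, while Dll1 and Rbpj lie right of 0 and near 0 on the y axis.

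Dll1, the Delta-like ligand, had the same sign as Rbpj on each array. It had 0.22 on lens249, 0.29 on lens487 and 0.62 on lens493, and 0.60 on lens250, -0.22 on lens488 and -0.30 on lens455. Rbpj, whose protein converts receptor cleavage into transcription, had 0.18 on lens249, 0.30 on lens487 and 0.28 on lens493, and 0.31 on lens250, -0.12 on lens488 and -0.14 on lens455. For both genes 4 arrays lay above 0, and lens488 and lens455 below it. How many other pairs of genes share their signs on every array was not counted. The Dll1 mean was 0.20 ± 0.39 (95% interval -0.11 to 0.51, limma adjusted p = 0.52), and that of Rbpj was 0.14 ± 0.21 (95% interval -0.049 to 0.32, limma adjusted p = 0.46). Without lens250 these means were 0.057 and 0.063. Without lens249 and lens250 they were 0.097 and 0.081.

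The target genes Hes1 and Hey1, both repressors of the basic helix-loop-helix class, had means of opposite sign and neither passed. Hes1 had 0.11 on lens249, -0.10 on lens487 and 0.26 on lens493, and 0.25 on lens250, 0.039 on lens488 and -0.084 on lens455. With 4 arrays above 0 and 2 below it, its SD of 0.158 was the lowest of the 10, and 76.3% of features had one at least as large. The Hes1 mean was 0.078 (95% interval -0.10 to 0.26, limma adjusted p = 0.68), whose upper end reads as 1.20-fold under log2 and as 1.81-fold under log10. Without lens250 the Hes1 mean was 0.033, without lens493 0.034, without lens487 0.13, and without lens249 and lens250 0.028.

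Hey1 had 0.23 on lens249, -0.70 on lens487 and -0.37 on lens493, and -0.077 on lens250, -0.49 on lens488 and 0.086 on lens455. It was below 0 on 4 of 6 arrays, with a mean of -0.22 ± 0.36 (95% interval -0.54 to 0.097, limma adjusted p = 0.49). Without lens249 its mean was -0.35 (limma adjusted p = 0.21), without lens249 and lens250 -0.37 (limma adjusted p = 0.27), without lens488 -0.14 and without lens487 -0.11. None of the 10 genes had the same sign on all 6 arrays, against 9.17% of all features.

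The genes whose 6 turned ratios lay nearest to those of Notch2, by Euclidean distance among all named genes, were Fut10 (distance 0.142), Muc1 (0.156), Srm (0.173), Olfr248 (0.179) and Nxpe4 (0.182). Like Notch2, all 5 were above 0 on 5 arrays and below it on lens249, with means from 0.23 for Muc1 to 0.30 for Srm, and none passed (limma adjusted p from 0.14 for Srm to 0.18 for Muc1). The 5 genes were chosen by these same ratios, so their likeness to Notch2 in sign and mean follows from the choice. With 6 arrays and 16504 genes, such nearness describes these arrays only.

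**Figure D3:**
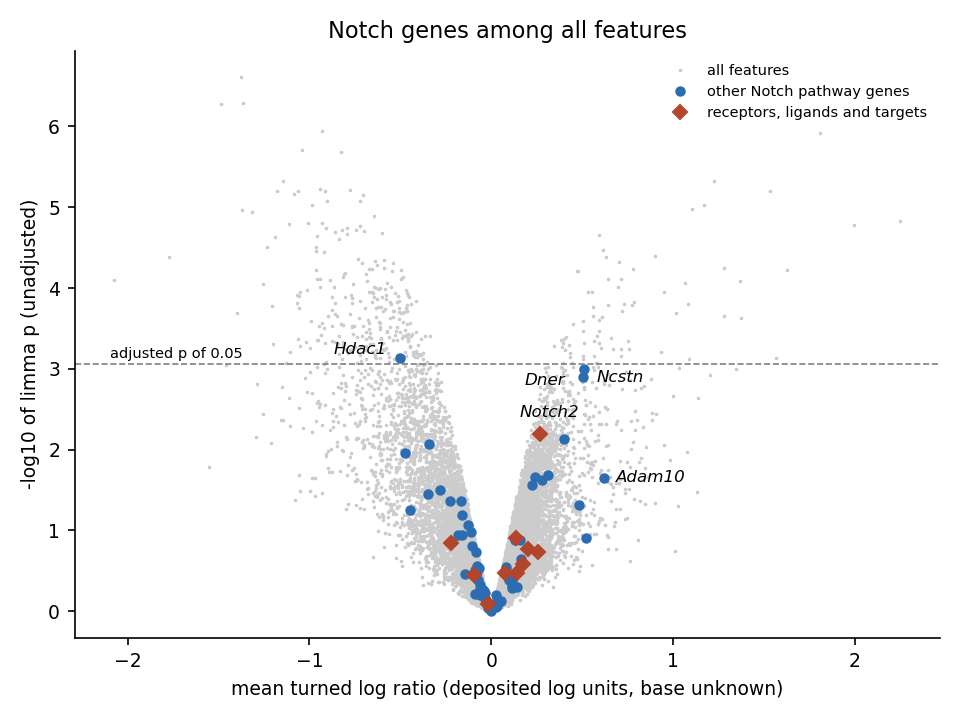
Mean turned log ratio (x axis, deposited log units) against -log10 of the unadjusted limma p (y axis) for all features in grey, the 10 Notch genes as red diamonds and 66 other Notch pathway genes as blue circles. All red diamonds lie under the dashed line of an adjusted p of 0.05, with Notch2 highest, and among the blue circles Hdac1 lies above it.

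Other genes of the pathway were taken from 8 lists by role, 74 genes of which 66 were measured. Of these, 1 passed in limma, Hdac1, on the negative side, which is 1.52% against 1.73% of all features. At an unadjusted p under 0.05 there were 16, or 24.2%, against 16.2%. The median of the 66 was -0.017, with 29 above 0. The counts per list given below stand against the same 1.73% and 16.2% of all features.

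Hdac1, a histone deacetylase recruited with corepressors to RBPJ and to many other factors, had -0.16 on lens249, -0.37 on lens487 and -0.73 on lens493, and -0.46 on lens250, -0.71 on lens488 and -0.57 on lens455. All 6 arrays lay below 0, on the side of Cdh2. The mean was -0.50 ± 0.22 (SD, n = 6; 95% interval -0.71 to -0.29, limma adjusted p = 0.045), a size that reads as 1.42-fold under log2 and as 3.17-fold under log10. The call was lost without any one of the 6 arrays (limma adjusted p from 0.062 to 0.16), and in 11 of 17 alternatives in all. The labels do not say whether lens249 and lens250, lens487 and lens488, and lens493 and lens455 are dye swaps of the same RNA. If they are, there are 3 replicates, and on the 3 averaged pairs Hdac1 did not pass (limma adjusted p = 0.28). Of 13 measured corepressors the other 12 did not pass, among them Tle3 (0.31 ± 0.40, limma adjusted p = 0.21), a Groucho family member that Hes proteins recruit, and the demethylase Kdm5a (0.22 ± 0.41, adjusted p = 0.24).

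Among the genes of receptor cleavage, Ncstn, the substrate-binding subunit of gamma-secretase, had 0.38 on lens249, 0.48 on lens487 and 0.26 on lens493, and 1.04 on lens250, 0.47 on lens488 and 0.44 on lens455. It was above 0 on all 6 arrays, with a mean of 0.51 ± 0.27 (95% interval 0.29 to 0.73), and missed the threshold (limma adjusted p = 0.054). It passed in limma without the dye term (adjusted p = 0.046) and with arrays scaled to one spread (adjusted p = 0.040). Adam10, the protease of the first cut, had 0.62 ± 0.60 (limma adjusted p = 0.22), but its 2 probes gave 1.08 and 0.16. Aph1b, another gamma-secretase subunit, had 0.52 ± 0.86 (limma adjusted p = 0.46), but 0.15 without lens250 and 0.11 without lens249 and lens250. Without lens455 the Adam10 mean was 0.37. Of 8 measured cleavage genes 0 passed in limma, and 2 had an unadjusted p under 0.05.

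**Figure D4:**
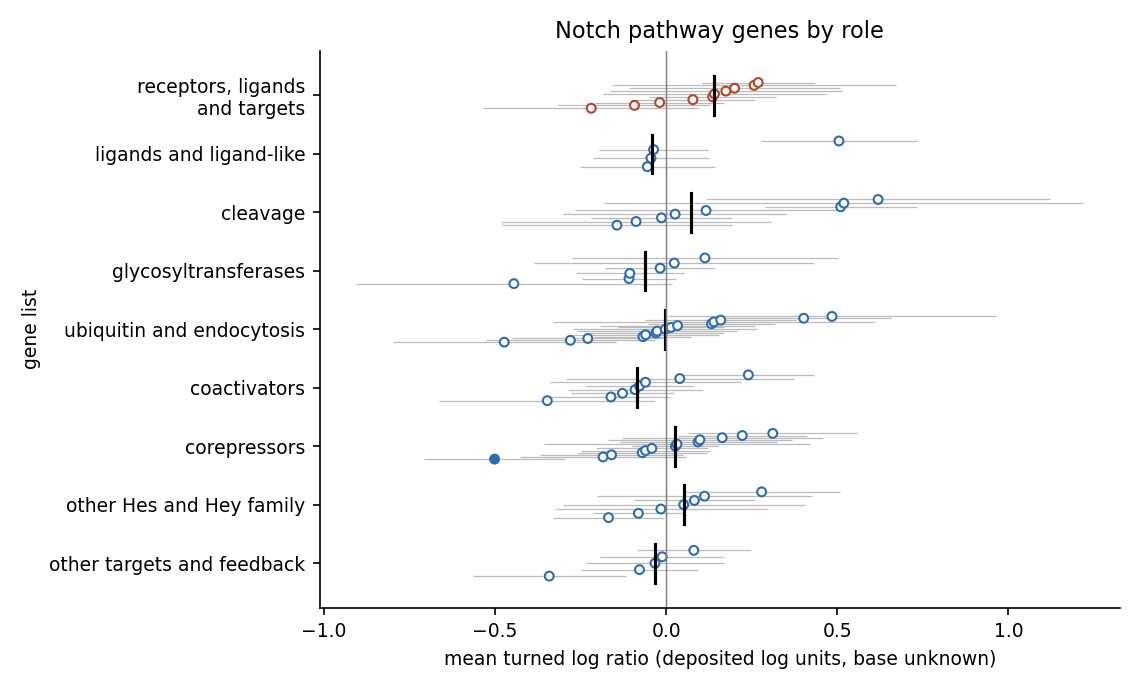
Mean turned log ratio (x axis, deposited log units) with its 95% limma interval for each Notch gene and each other pathway gene, one row per list (y axis), with filled circles for an adjusted p under 0.05 and black bars for list medians. Hdac1 among the corepressors is the filled circle, at -0.50; medians of the 8 pathway lists lie between -0.084 and 0.071 and that of the 10 Notch genes at 0.14.

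Among the other ligands and ligand-like genes, Dner, a Notch-binding protein of neurons, had 0.50 on lens249, -0.099 on lens487 and 0.26 on lens493, and 0.79 on lens250, 0.58 on lens488 and 1.00 on lens455. Its mean of 0.50 ± 0.39 (95% interval 0.28 to 0.73) lay above 0 on 5 of 6 arrays and did not pass (limma adjusted p = 0.060). Dll3 (-0.045 ± 0.17) and Dlk1 (-0.055 ± 0.20) lay near 0, with limma adjusted p of 0.82 and 0.81. Of the 4 measured genes 0 passed in limma and 1 had an unadjusted p under 0.05.

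The other Hes and Hey genes were all measured, and of 7, 0 passed in limma and 2 had an unadjusted p under 0.05. Hey2 had 0.28 ± 0.34 (limma adjusted p = 0.23), Hes6 -0.17 ± 0.12 (adjusted p = 0.29) and Hes2 -0.081 ± 0.094 (adjusted p = 0.54). Hey2 was above 0 on 5 of 6 arrays, and its relative Hey1 on 2. Of 5 other targets and feedback genes 0 passed in limma, and 1 had an unadjusted p under 0.05. That was Ccnd1, the cell cycle gene cyclin D1, at -0.34 ± 0.24 and below 0 on 5 of 6 arrays (limma adjusted p = 0.14). Nrarp, a feedback inhibitor that Notch induces, had -0.078 ± 0.15 (limma adjusted p = 0.67), and Sox9 0.081 ± 0.16 (adjusted p = 0.64). Without lens488 these means were -0.027 and 0.041, without lens487 that of Nrarp was -0.047, and that of Sox9 was 0.048 without lens493, 0.12 without lens250 and 0.16 without lens249 and lens250.

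Genes that modify or remove Notch proteins did not pass either. Of 15 measured genes of ubiquitin and endocytosis 0 passed in limma and 5 had an unadjusted p under 0.05. Itch, a ubiquitin ligase that acts on Notch, was above 0 on all 6 arrays at 0.40 ± 0.27 (limma adjusted p = 0.13). Epn2, an endocytic adaptor, had -0.47 ± 0.37 (adjusted p = 0.16), and Numbl, a relative of the Notch inhibitor Numb, had -0.28 ± 0.29 (adjusted p = 0.25). Of 6 glycosyltransferases 0 passed in limma and 0 had an unadjusted p under 0.05, with Poglut1, which adds glucose to Notch, at -0.45 ± 0.55, Lfng at -0.11 ± 0.083 and Rfng at -0.11 ± 0.13 (limma adjusted p from 0.33 to 0.50). The Poglut1 mean was -0.28 without lens493 and -0.76 without lens249 and lens250, and the Rfng mean was -0.061 without lens455.

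Of 8 coactivator genes 0 passed in limma and 2 had an unadjusted p under 0.05. Maml3, of the Mastermind family that joins RBPJ and cleaved Notch, had -0.35 ± 0.35 (limma adjusted p = 0.27), and Maml1 was below 0 on all 6 arrays at -0.16 ± 0.15 (adjusted p = 0.34). Without lens493 these means were -0.20 and -0.11. The acetyltransferase gene Crebbp had 0.24 ± 0.18 (adjusted p = 0.22), with its 2 probes at 0.50 and -0.021.

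Markers of lens fibers, and of other cells that captured tissue may contain, were counted in the same fit. Of all features 1.73% passed and 16.2% had an unadjusted p under 0.05. In limma 0 of 6 lens epithelium markers passed, with 1 at an unadjusted p under 0.05, and the mean of the list lay between -0.083 and 0.13 on the 6 arrays. Of 6 measured retina and pigment cell markers 0 passed, with 2 at an unadjusted p under 0.05 and list means from 0.0077 to 0.18. Of 4 measured macrophage and leukocyte markers 1, Laptm5, passed on the positive side (0.35 ± 0.21, limma adjusted p = 0.039), with list means from -0.13 to 0.26. Of 9 measured lens fiber markers 1, Dnase2b, passed, with list means from -0.23 to 0.62. Those means include Dnase2b, which also names the positive side. The crystallin genes Cryaa, Cryba1 and Crybb2 had one and the same value on lens250 (-0.442), and why was not tested. The part of any of these cell types in the Notch values was not tested.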

How the data were processed

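The authors deposited 1 log ratio per array for each of 22575 probes, with 0 missing. The sources used here do not give its base, its numerator channel or how it was normalized and corrected for background. Without spot intensities, precision was judged only from the number of arrays and the spread between them. Probes were named from the platform annotation (18218 with 1 symbol, 16 with several, 4341 unlisted), and 18175 of the first matched RefSeq of GRCm38.p6 by gene ID.

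Rows with identical values were counted once where they shared a gene name or had none. Unlisted probes in sets of at least 20 with the same values (10 sets, 1032 probes), taken for control spots, were dropped. Arrays were median-centred, and probes of a gene were averaged.

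Differences were tested two-sided with lmFit and eBayes of limma 3.58.1 (R 4.3.3), with terms for the fiber difference and for dye, Benjamini-Hochberg adjusted over 19624 features at 0.05, and tested on simulated data. SDs over turned arrays include the dye effect, which the fit removes. Values kept their deposited log units. The 10 genes and the lists were chosen with earlier results of these data known. Named were the 10 genes, the 3 genes of lowest p per pathway list with any that passed, the 5 genes nearest to the member of lowest p, Dnase2b and Cdh2. Laptm5, Kdr, Flt1, Cryaa, Cryba1 and Crybb2 were named after their values were seen. Alternatives were no dye term, no centring, single probes, named genes only, all rows, scaled arrays and robust eBayes. Others were averaged pairs of arrays (lens249 with lens250, lens487 with lens488, lens493 with lens455), each orientation alone and each array left out. The last, chosen after seeing the data, left out both lens249 and lens250. Figures used matplotlib 3.10.9.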

Additional observations from a re-analysis of the deposited data

Results flagged for a closer look

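For 4 of 34 named genes 1 of the 6 turned ratios lay far from the other 5. With independent values of a normal distribution, about 1 in 20 genes, or 1.7, would do so. Turned ratios include the dye effect, and most of the 34 genes were named by their p, so the rate here may differ. On array lens250, Aph1b had 2.17, against -0.094 to 0.53 on the rest, Ncstn had 1.04, against 0.26 to 0.48, and Dll3 had -0.37, against -0.044 to 0.12. On array lens488, Numbl had 0.27, against -0.56 to -0.26. None of the 10 receptors, ligands and targets was among them.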

How the results depend on the processing

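No Notch receptor, ligand or target passed in limma under any of the 17 alternatives. Those at an unadjusted p under 0.05 in limma numbered from 1 to 4. The 4 (Notch1, Notch2, Jag1 and Jag2) came from the arrays with elongating fibers in channel 1 alone, against 13.6% of all features. On the arrays with mature fibers in channel 1 alone there were 2, Dll1 and Rbpj, against 13.3%. A fit on 1 orientation cannot separate the dye effect from the fiber difference. Reading channel 2 as the numerator exchanges every sign at once. With mature fibers in channel 1 alone, the mean changed sign for Notch1 (-0.30), Jag1 (-0.11), Jag2 (-0.23), Dlk1 (0.027), Dll3 (0.051) and Kdm5a (-0.11). With elongating fibers in channel 1 alone, Notch3 had 0.040. Leaving out 1 array gave -0.069 to 0.035 for Notch3, -0.14 to 0.002 for Notch4, -0.12 to 0.015 for Dlk1 and -0.078 to 0.013 for Dll3.

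Over all features 339 passed in limma, 16 to 117 without 1 array. There were 0 on 3 averaged pairs (2395 at an unadjusted p under 0.05), 0 on arrays with mature fibers in channel 1 alone (2609), 0 on those with elongating fibers in channel 1 alone (2670) and 0 without lens249 and lens250 (3096). Of 66 other pathway genes 1 passed. There were 2 without the dye term and 2 with scaled arrays, where Ncstn (0.51 and 0.50) joined Hdac1. There were 0 with all rows kept, on averaged pairs, in each orientation alone, without lens249 and lens250, and 0 to 0 without 1 array. The fits on part of the arrays use fewer of them, and the averaged pairs reduce 6 arrays to 3 values. The fit with all rows kept brings back control and repeated rows, does not average the probes of a gene and tests more features. Beyond that the cause was not tested. The labels give the arrays no replicate numbers. The pairs were lens249 with lens250, lens487 with lens488, and lens493 with lens455. The first 2 pairs have neighbouring title numbers, and lens493 and lens455 were the arrays left.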
